A study of Mus musculus with 4 samples.

Results

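Eosinophil granule and receptor genes were the 9 genes Prg2, Prg3, Epx, Ear1, Ear2, Ear6, Ear10, Siglecf and Il5ra, taken by mouse symbol from a table of 28987 genes. All 9 had a row in the table. They were chosen by name, without use of their values, although earlier results of these data were known when the list was drawn up. Gene expression had been measured by RNA sequencing of c-Kit-positive bone marrow cells, described as haematopoietic stem and progenitor cells, from C57BL/6 mice. In 2 libraries, named Hif1a-null here, the genotype was MllPTD/WT, Runx1 Flox/Flox, Hif-1α Flox/Flox, Mx1-Cre. In the other 2 libraries, named Hif1a-intact, it was MllPTD/WT, Runx1 Flox/Flox, Mx1-Cre. All 4 libraries thus carried 1 Mll allele with a partial tandem duplication and a floxed Runx1 with the same Cre, so neither group was wild type. The sample titles name Runx1 as null in all 4 libraries. Mx1-Cre is a recombinase under an interferon-inducible promoter and is not confined to 1 blood lineage. The labels name no inducing agent, no age and no sex, and leave unsaid whether a group's libraries represent different animals. The p-values therefore measure only the spread between these libraries, which may be technical.

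Eosinophils are granulocytes that mature in the marrow under interleukin-5 and store cationic proteins in large granules. Major basic protein (Prg2) forms the crystalline core of the granule, eosinophil peroxidase (Epx) makes reactive halogen species, and the eosinophil-associated ribonucleases (Ear genes) are members of the RNase A family. Granule protein genes are transcribed in eosinophil progenitors, before the surface receptors of the mature cell reach their full level. Ear2 and Siglecf are also known from macrophages, Il5ra from a class of B cells, and Prg2 from human basophils.

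Levels are in TPM, a relative transcript abundance scaled for transcript length, so levels of different genes can be set side by side. TPM keeps no read count and depth is unknown. A gene was tested when at least 1 TPM was reached in at least 2 libraries, with limma on log2(TPM + 1), and called at an adjusted p under 0.05. A positive fold change means a higher level with Hif1a-null, and on this scale the change of a low gene is understated. Of 11909 genes tested, 7.27% were called (5.25% as higher, 2.02% as lower), and the median log2 fold change was -0.06. Hif1a itself read 98.8 and 113 TPM in Hif1a-null libraries, against 100.3 and 75.2 TPM in Hif1a-intact libraries (limma, adjusted p = 0.479). A gene-level value includes exons outside a floxed part and does not check the deletion, so directions rest on the labels. Runx1, floxed in both groups, read 48.4 and 46.7 TPM in Hif1a-null libraries and 73.6 and 76.6 TPM in Hif1a-intact libraries (limma, adjusted p = 0.0636). A Runx1 difference and Hif1a status cannot be told apart in this design.

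Ear genes are near copies of each other, which matters for every value given for them. The first 120 coding bases of the GENCODE vM21 transcripts (GRCm38) show how little separates them. They are printed 5′ to 3′, and capitals mark bases that differ from Ear2.
Ear2: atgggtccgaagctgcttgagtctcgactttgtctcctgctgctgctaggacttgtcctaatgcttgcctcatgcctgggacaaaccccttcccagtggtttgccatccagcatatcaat
Ear1: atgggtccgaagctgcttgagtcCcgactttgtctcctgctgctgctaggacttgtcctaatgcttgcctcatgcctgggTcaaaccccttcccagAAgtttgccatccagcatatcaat
Ear10: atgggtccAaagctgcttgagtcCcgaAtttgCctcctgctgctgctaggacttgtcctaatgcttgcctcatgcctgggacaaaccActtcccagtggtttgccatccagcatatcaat
Ear6: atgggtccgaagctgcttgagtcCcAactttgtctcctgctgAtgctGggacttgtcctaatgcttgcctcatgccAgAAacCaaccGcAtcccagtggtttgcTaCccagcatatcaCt
In this stretch Ear1 differed from Ear2 at 4 bases, Ear10 at 5 and Ear6 at 13. Over the whole coding sequence the identity to Ear2 was 97.0% for Ear10 (14 mismatches in 468 aligned bases), 95.7% for Ear1 (20 in 465) and 88.0% for Ear6 (56 in 465). In a separate search of transcripts, Ear1 and Ear10 each reached the limit of 95% identity against Ear2. They count here as its near-identical copies, and Ear6 does not. A read that covers no differing base cannot be assigned to 1 of the copies, so the split between them is an estimate.

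Prg2 was the most abundant of the 9 genes in Hif1a-null libraries and rose there, while Siglecf fell. Of the 9, 2 were called higher (Prg2 and Ear2), 1 was called lower (Siglecf), 2 were tested and not called (Prg3 and Epx) and 4 were not tested (Ear1, Ear6, Ear10 and Il5ra). Over all tested genes 7.27% were called. The 5 tested genes had groups that did not overlap, which was so for 55.0% of all tested genes, and the filter favours this for genes that are low in 1 group.

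**Figure D1:**
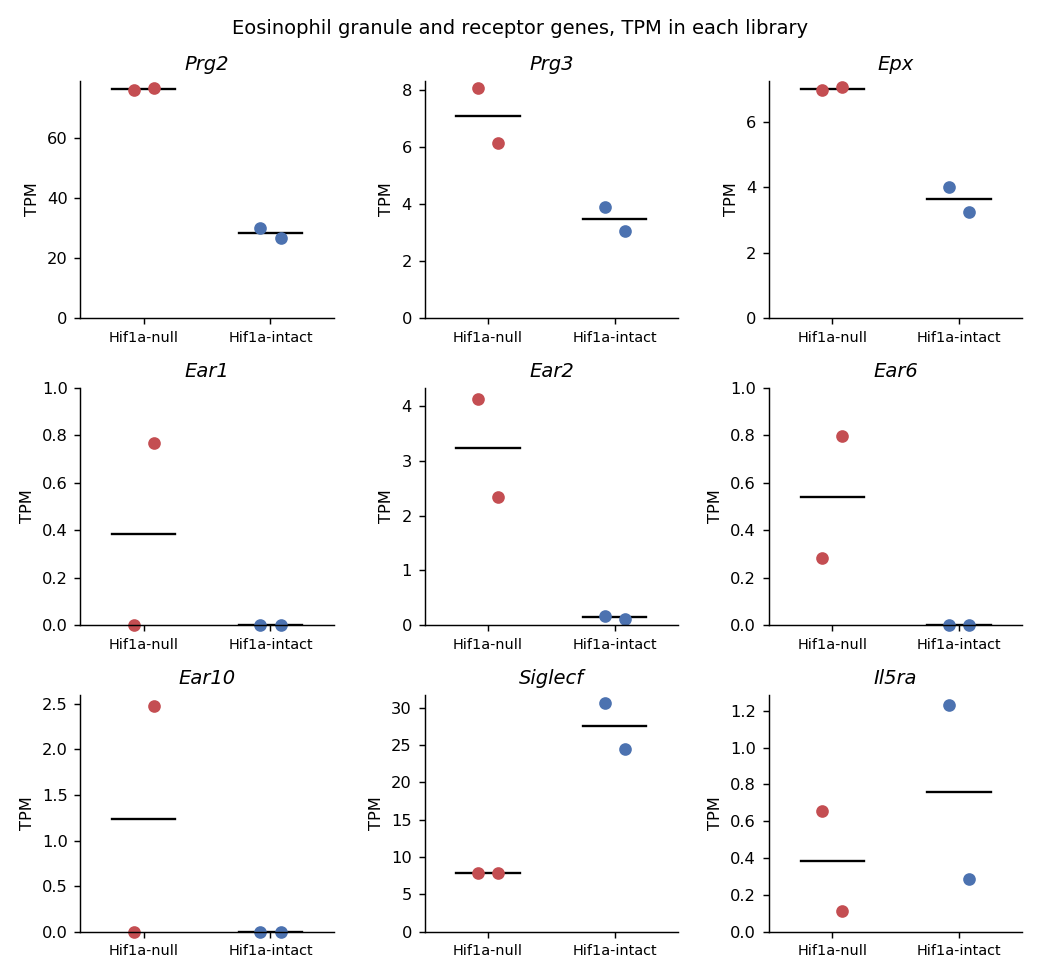
TPM of each of the 9 genes in each library (points) with the group mean (black line), Hif1a-null on the left of each panel and Hif1a-intact on the right, each panel with its own axis from 0. Prg2, Prg3, Epx and Ear2 lie higher in both Hif1a-null libraries, Siglecf lies lower in both, Ear6 is listed above 0 only in Hif1a-null libraries, and the groups overlap for Ear1, Ear10 and Il5ra.

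Prg2 (ENSMUSG00000027073, GRCm38 chromosome 2, 84980461 to 84983632, plus strand) encodes the proform of major basic protein. It read 76.3 and 76.7 TPM in Hif1a-null libraries, against 30.1 and 26.9 TPM in Hif1a-intact libraries. The replicates lay close together and the groups were far apart. The means were 76.5 ± 0.301 and 28.5 ± 2.24 TPM (SD, n = 2 each), a ratio of 2.69. The log2 fold change was 1.40 ± 0.13 (SE, limma, adjusted p = 0.0147). In rank order of the whole table, Prg2 stood at 1475 and 1478 in Hif1a-null libraries and at 3811 and 4014 in Hif1a-intact libraries.

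Prg3 (ENSMUSG00000027072, chromosome 2, 84988215 to 84993886, plus strand) encodes the major basic protein homologue and lies 4583 bases from Prg2. It read 8.08 and 6.14 TPM in Hif1a-null libraries, against 3.90 and 3.08 TPM in Hif1a-intact libraries. Both Hif1a-null libraries lay above both Hif1a-intact libraries, with a ratio of means of 2.04. The log2 fold change of 0.85 ± 0.19 (SE), with a 95% interval of 0.32 to 1.38, was not called (limma, adjusted p = 0.0932).

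Epx (ENSMUSG00000052234, chromosome 11, 87864000 to 87875536, minus strand) encodes eosinophil peroxidase. It read 6.98 and 7.07 TPM in Hif1a-null libraries, against 4.03 and 3.25 TPM in Hif1a-intact libraries. The groups did not overlap, and the ratio of means was 1.93. The log2 fold change of 0.79 ± 0.15 (SE), with a 95% interval of 0.39 to 1.2, was not called (limma, adjusted p = 0.0589). It passed under 4 of 14 alternatives, with an adjusted p of 0.0411 at the lowest.

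The share of Prg2 among granule transcripts was alike in the 4 libraries, while its ratios to Epx and to Prg3 lay higher in both Hif1a-null libraries, a difference not tested. Prg2 made up 79.7% and 79.7% of the summed TPM of Prg2, Prg3, Epx and all Ear rows in Hif1a-null libraries, and 78.8% and 80.7% in Hif1a-intact libraries. Prg2 was 10.9 and 10.9 times the level of Epx in Hif1a-null libraries and 7.46 and 8.26 times in Hif1a-intact libraries. It was 9.44 and 12.5 times the level of Prg3 in Hif1a-null libraries and 7.71 and 8.74 times in Hif1a-intact libraries. The sum of the granule transcripts was 95.7 and 96.3 TPM in Hif1a-null libraries, against 38.2 and 33.3 TPM in Hif1a-intact libraries.

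Ear2 (ENSMUSG00000072596, chromosome 14, 44102654 to 44103534, plus strand) was the Ear gene with a value above 0 in every library. It read 4.14 and 2.34 TPM in Hif1a-null libraries, against 0.172 and 0.107 TPM in Hif1a-intact libraries. Its log2 fold change was 1.86 ± 0.25 (SE, limma, adjusted p = 0.0286). Because both Hif1a-intact values were under 1 TPM, Ear2 was tested only through the Hif1a-null libraries and could only be higher there. The call was lost without Hif1a-intact replicate 1 and without Hif1a-intact replicate 2 (limma, adjusted p = 0.07 and 0.0842), and with Hif1a-null replicate 1 or 2 left out Ear2 was no longer tested.

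The other 3 Ear genes were listed at 0 in both Hif1a-intact libraries. Ear10 (ENSMUSG00000090166, chromosome 14, 43922720 to 43923559, minus strand) was listed at 0 in Hif1a-null replicate 1 and read 2.47 TPM in Hif1a-null replicate 2. Ear1 (ENSMUSG00000072601, chromosome 14, 43818765 to 43875517, minus strand) was listed at 0 and read 0.769 TPM in the same libraries. Ear6 (ENSMUSG00000062148, chromosome 14, 51853699 to 51854643, plus strand), farther along the chromosome and less alike in sequence, read 0.282 and 0.798 TPM. An exact 0 in such a table can be a failed estimate, so no fold is given for these 3 genes and none passed the filter.

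**Figure D2:**
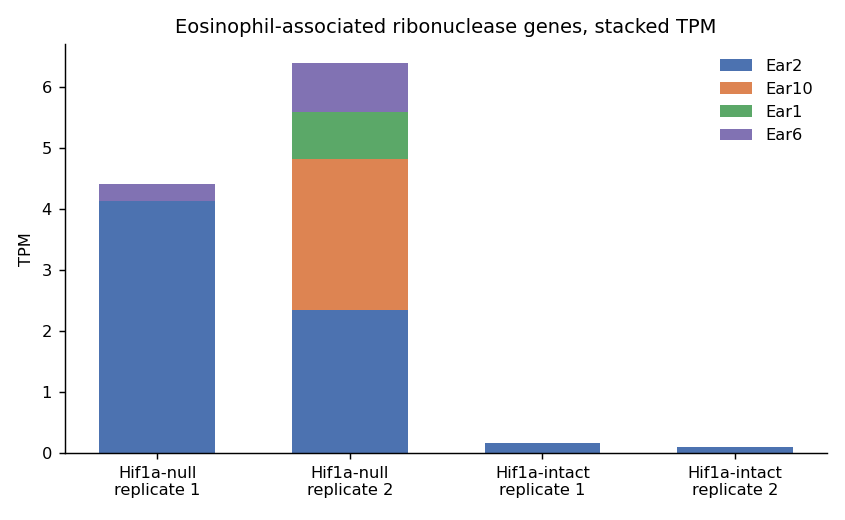
Stacked TPM (vertical axis from 0) of Ear2, Ear10, Ear1 and Ear6 in each library, Hif1a-null on the left. The bars reach 4.42 and 6.38 TPM in Hif1a-null libraries, with Ear10 and Ear1 present in replicate 2 and at 0 in replicate 1, and 0.172 and 0.107 TPM in Hif1a-intact libraries.

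Summing the copies removes the dependence on how reads were split. Of 14 Ear rows in the table, pseudogenes included, 10 were at 0 in all 4 libraries, and the others were the 4 genes above. Their sum was 4.42 and 6.38 TPM in Hif1a-null libraries, against 0.172 and 0.107 TPM in Hif1a-intact libraries. Ear2 held 93.6% and 36.7% of that sum in Hif1a-null libraries and all of it in Hif1a-intact libraries. With the Ear rows replaced by their sum, the log2 fold change was 2.47 ± 0.20 (SE, limma, adjusted p = 0.0101). With Ear2 summed only with its near-identical copies, it was 2.35 (limma, adjusted p = 0.00903). Both sums, like Ear2, were tested only through the Hif1a-null libraries.

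Siglecf (ENSMUSG00000039013, chromosome 7, 43351341 to 43359531, plus strand) encodes a sialic acid-binding inhibitory receptor that marks mature mouse eosinophils. It read 7.88 and 7.91 TPM in Hif1a-null libraries, against 30.6 and 24.5 TPM in Hif1a-intact libraries. The Hif1a-intact libraries were both higher, with no overlap. The means were 7.89 ± 0.0190 and 27.5 ± 4.34 TPM (SD, n = 2 each), so the Hif1a-intact mean was 3.49 times the Hif1a-null mean. The log2 fold change was -1.67 ± 0.16 (SE, limma, adjusted p = 0.0149). The ratio of Prg2 to Siglecf within a library was 9.68 and 9.70 in Hif1a-null libraries and 0.982 and 1.10 in Hif1a-intact libraries.

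Il5ra (ENSMUSG00000005364, chromosome 6, 106710357 to 106749037, minus strand) encodes the interleukin-5-binding chain of the eosinophil growth factor receptor. It read 0.657 and 0.112 TPM in Hif1a-null libraries, against 1.23 and 0.285 TPM in Hif1a-intact libraries. The groups overlapped and Il5ra did not pass the filter.

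**Figure D3:**
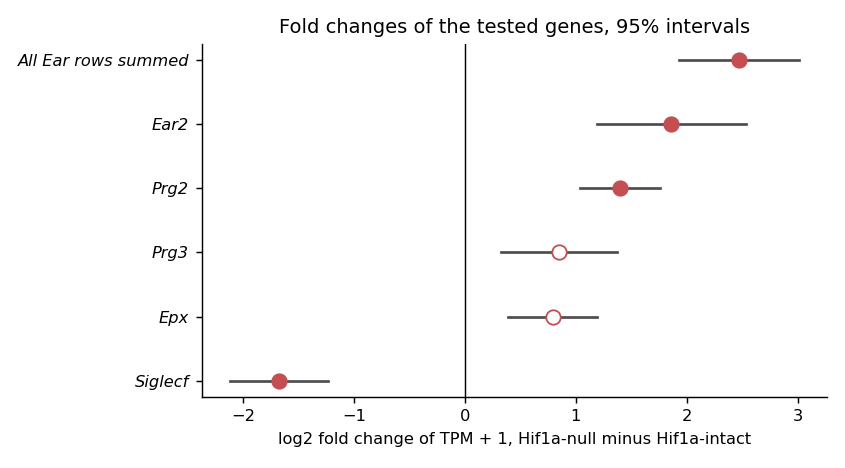
Log2 fold change of TPM + 1, Hif1a-null minus Hif1a-intact, for the 5 tested genes and the sum of all Ear rows, with 95% intervals from limma. Filled points are called at an adjusted p under 0.05. Siglecf lies at -1.67, Epx at 0.79 and Prg3 at 0.85 (both open), and Prg2, Ear2 and the Ear sum at 1.40, 1.86 and 2.47.

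Leaving out either Hif1a-null library ended the calls for Prg2 and Siglecf. The limma adjusted p of Prg2 was then 0.206 without Hif1a-null replicate 1 and 0.246 without Hif1a-null replicate 2, at log2 fold changes of 1.40 and 1.39. For Siglecf the adjusted p was 0.177 and 0.206, at -1.67 and -1.68. The spread then comes from the Hif1a-intact pair alone, and over all genes 19 and 0 were called.

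By mean level, the order with Hif1a-null was Prg2 (76.5 TPM), Siglecf (7.89), Prg3 (7.11), Epx (7.02) and Ear2 (3.24). With Hif1a-intact it was Prg2 (28.5 TPM), Siglecf (27.5), Epx (3.64), Prg3 (3.49), Il5ra (0.758) and Ear2 (0.140). Within Hif1a-null libraries Prg2 stood alone at the top, and Siglecf, Prg3 and Epx lay between 6.14 and 8.08 TPM. Prg3 (8.08 and 6.14 TPM) spanned both others. Siglecf (7.88 and 7.91 TPM) lay a little above Epx (6.98 and 7.07 TPM) in both libraries, a difference not tested. Within Hif1a-intact libraries Prg2 and Siglecf, between 24.5 and 30.6 TPM, could not be ordered, and Prg3 and Epx again lay side by side.

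Promoter windows of 300 bases (250 before and 50 after the annotated start) were available from RefSeq for 8 of the 9 genes by symbol, on GRCm38.p6. Prg2 was not among them. The windows of a gene next to Prg2, of the called Ear gene and of the gene that moved the other way are shown, 5′ to 3′ on the gene's strand. Capitals mark matches, on either strand, to 4 motifs. These were AGATAA, here called the first form of the GATA motif, bound by factors that drive eosinophil commitment, and TGATAA, here called the second. GATA forms that end in G were not searched, and TGATAG stands in lower case in the Siglecf window. The others were TTNNGCAA, a C/EBP motif bound by granulocyte factors, and ACGTG, a form of the core of the hypoxia response element. Another form of that core, GCGTG, was not searched. It stands in lower case in the Prg3 window and, on the other strand, occurs in the Il5ra window.
Prg3, chr2:84987965-84988264, plus strand: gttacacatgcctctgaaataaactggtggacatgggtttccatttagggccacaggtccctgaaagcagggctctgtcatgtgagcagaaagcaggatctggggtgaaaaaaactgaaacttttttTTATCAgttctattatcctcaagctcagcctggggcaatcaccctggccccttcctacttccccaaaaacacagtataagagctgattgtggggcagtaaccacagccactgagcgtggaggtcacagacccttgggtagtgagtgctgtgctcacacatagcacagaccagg
Ear2, chr14:44102404-44102703, plus strand: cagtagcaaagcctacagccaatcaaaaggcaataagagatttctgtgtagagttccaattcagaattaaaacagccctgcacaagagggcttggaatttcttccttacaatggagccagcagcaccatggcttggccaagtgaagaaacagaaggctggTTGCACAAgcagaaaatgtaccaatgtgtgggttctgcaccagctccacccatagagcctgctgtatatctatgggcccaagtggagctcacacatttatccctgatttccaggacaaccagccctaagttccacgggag
Siglecf, chr7:43351091-43351390, plus strand: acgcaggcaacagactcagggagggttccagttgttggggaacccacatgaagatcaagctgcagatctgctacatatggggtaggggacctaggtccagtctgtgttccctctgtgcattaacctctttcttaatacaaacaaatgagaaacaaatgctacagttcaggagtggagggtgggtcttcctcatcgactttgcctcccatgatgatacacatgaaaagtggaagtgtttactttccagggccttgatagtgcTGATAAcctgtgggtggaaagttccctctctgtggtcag
A TGATAA match began 123 bases before the start of Prg3 (on the other strand) and at base 12 of the transcribed part of Siglecf, and Il5ra had an AGATAA match 74 bases before its start. The C/EBP motif was matched in Ear1, Ear2 and Ear10, at 92, 90 and 94 bases before the start. These windows are alike in sequence and hold the same TTGCACAA, so they are not separate matches. Epx and Ear6 held none of the motifs searched. AGGAAG, an ETS motif searched on both strands and not capitalised here, was matched in Prg3, Ear1, Ear2, Ear10 and Siglecf. ACGTG was found in 0 of the 8 windows. Over all 32851 windows, the first GATA form was held by 11.2% and the second by 9.05%, the C/EBP motif by 10.8%, the ETS motif by 35.4% and ACGTG by 19.6%. Both GATA forms searched differ in their first letter only and cannot match at the same base of a strand.

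Other genes of the eosinophil lineage were taken from 5 lists of 56 symbols, of which 48 matched a row and 35 were tested. Of the 35, 7 were called higher, 6 lower and 22 not called, that is 37.1% called, against 7.27% of all tested genes. The lists were drawn up with earlier results of these data known, so this share is not independent of them. It was also not particular to these lists, since 6 of 8 later neutrophil granule genes and 6 of 7 tested B cell markers were called. Of those 7 B cell markers, 5 were tested only through the Hif1a-null libraries and could only be called higher. The other marker lists had fewer calls. There were 0 calls among 5 primary granule genes, 1 lower among 5 progenitor markers and 2 lower among 6 tested mast cell and basophil markers. Among 10 tested macrophage and monocyte markers 1 was called higher and 2 lower. Of the 7 higher calls among the 35 genes, 3 (Il1rl1, Cysltr1 and Itgax) were of genes tested only through the Hif1a-null libraries, which could only be called higher. The median log2 fold change of the 35 was -0.02, against -0.06 over all tested genes. With Hif1a-null replicate 1 or 2 left out 0 of these genes were called, with Hif1a-intact replicate 1 left out 13 and with Hif1a-intact replicate 2 left out 9. Without Hif1a-intact replicate 1, Zfpm1 was lost (limma, adjusted p = 0.0669) and Rnase6 gained (0.0444). Without Hif1a-intact replicate 2, Il3ra, Zfpm1, Cysltr1 and Itgax were lost (limma, adjusted p = 0.0686, 0.0788, 0.0610 and 0.0536).

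Among receptors that act with interleukin-5 or in its place, 5 of 7 genes were tested, with 1 called higher, 1 called lower and a median log2 fold change of -0.21. The fold change was below 0 for 4 of the 5, and the remaining one, Il1rl1, could only be called higher. Csf2rb, the signalling chain that Il5ra shares with the receptors of interleukin-3 and GM-CSF, read 42.7 and 42.7 TPM in Hif1a-null libraries and 46.5 and 47.1 TPM in Hif1a-intact libraries. Il3ra, the interleukin-3 receptor chain, fell to 2.16 and 1.94 TPM in Hif1a-null libraries, against 4.22 and 4.82 TPM in Hif1a-intact libraries (limma, adjusted p = 0.0435). Il1rl1, the receptor of interleukin-33, read 6.92 and 8.13 TPM in Hif1a-null libraries, against 0.736 and 0.574 TPM in Hif1a-intact libraries (log2 fold change 2.36, limma adjusted p = 0.00706), and was tested only through the Hif1a-null libraries. Csf2ra and Csf2rb2, of the same receptor family, had log2 fold changes of -0.26 and -0.21, and neither they nor Csf2rb (-0.13) were called. Ccr3, the eotaxin receptor of mature eosinophils, stayed between 0.0097 and 0.264 TPM in the 4 libraries, and Il5 was listed at 0 in all 4.

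Transcription factors of the lineage were all 12 tested, with 2 higher, 2 lower and a median log2 fold change of -0.08. Gata1, which is required for eosinophil development and also drives red cells and platelets, read 14.7 and 18.6 TPM in Hif1a-null libraries, against 1.73 and 0.689 TPM in Hif1a-intact libraries (log2 fold change 3.03, limma adjusted p = 0.0147). Its partner Zfpm1 rose with a log2 fold change of 0.88. Gata2 fell to 6.68 and 6.21 TPM in Hif1a-null libraries, against 14.6 and 13.6 TPM in Hif1a-intact libraries (log2 fold change -1.02, limma adjusted p = 0.0267). Cebpa, needed for granulocyte commitment, fell to 13.0 and 13.6 TPM in Hif1a-null libraries, against 28.6 and 33.8 TPM in Hif1a-intact libraries (log2 fold change -1.17, limma adjusted p = 0.026). Cebpe, required for late granulocyte maturation, was not called, with 48.5 and 50.7 TPM in Hif1a-null libraries and 59.4 and 72.5 TPM in Hif1a-intact libraries.

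Among lipid mediator genes 5 of 7 were tested, with 2 higher, 0 lower and a median log2 fold change of 0.08. Alox5, the first enzyme of leukotriene synthesis, read 41.3 and 42.4 TPM in Hif1a-null libraries, against 12.4 and 14.7 TPM in Hif1a-intact libraries (log2 fold change 1.56, limma adjusted p = 0.0136). Cysltr1, a leukotriene receptor, read 1.42 and 1.22 TPM in Hif1a-null libraries and 0.243 and 0.188 TPM in Hif1a-intact libraries, and was tested only through the Hif1a-null libraries (log2 fold change 0.93, limma adjusted p = 0.0325). Alox5ap, which presents substrate to Alox5, read 1430 and 1248 TPM in Hif1a-null libraries and 2589 and 1102 TPM in Hif1a-intact libraries, with overlap. Ptgs1 had a log2 fold change of -0.04. Alox15, abundant in mature eosinophils, read 0.0657 and 0.205 TPM in Hif1a-null libraries and stood at 0 in both Hif1a-intact libraries.

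Adhesion and surface protein genes were tested in 10 of 10 matched rows, with 2 higher, 3 lower and a median log2 fold change of 0.19. Cd63, a tetraspanin of granule membranes in many blood cells, fell to 19.1 and 18.7 TPM in Hif1a-null libraries, against 92.3 and 76.6 TPM in Hif1a-intact libraries (log2 fold change -2.09, limma adjusted p = 0.00851). Adgre1, which encodes F4/80 and is carried by eosinophils and macrophages, fell to 10.1 and 9.72 TPM in Hif1a-null libraries, against 34.5 and 26.7 TPM in Hif1a-intact libraries (log2 fold change -1.53, limma adjusted p = 0.0211). Itgb7 fell with a log2 fold change of -1.13. Itgax had a log2 fold change of 1.01 and was tested only through the Hif1a-null libraries, so that it could only be called higher. Pirb, named after its values were seen, rose with 1.05.

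Other RNase A family rows gave no call. Of 12 matched rows 9 were at 0 in all 4 libraries, Rnase2a, Rnase2b and Ear14 among them, and 3 were tested. Rnase6 read 10.2 and 9.0 TPM in Hif1a-null libraries and 5.91 and 3.68 TPM in Hif1a-intact libraries (log2 fold change 0.90, limma adjusted p = 0.124). Rnase4 and Ang had log2 fold changes of 0.47 and 0.12.

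**Figure D4:**
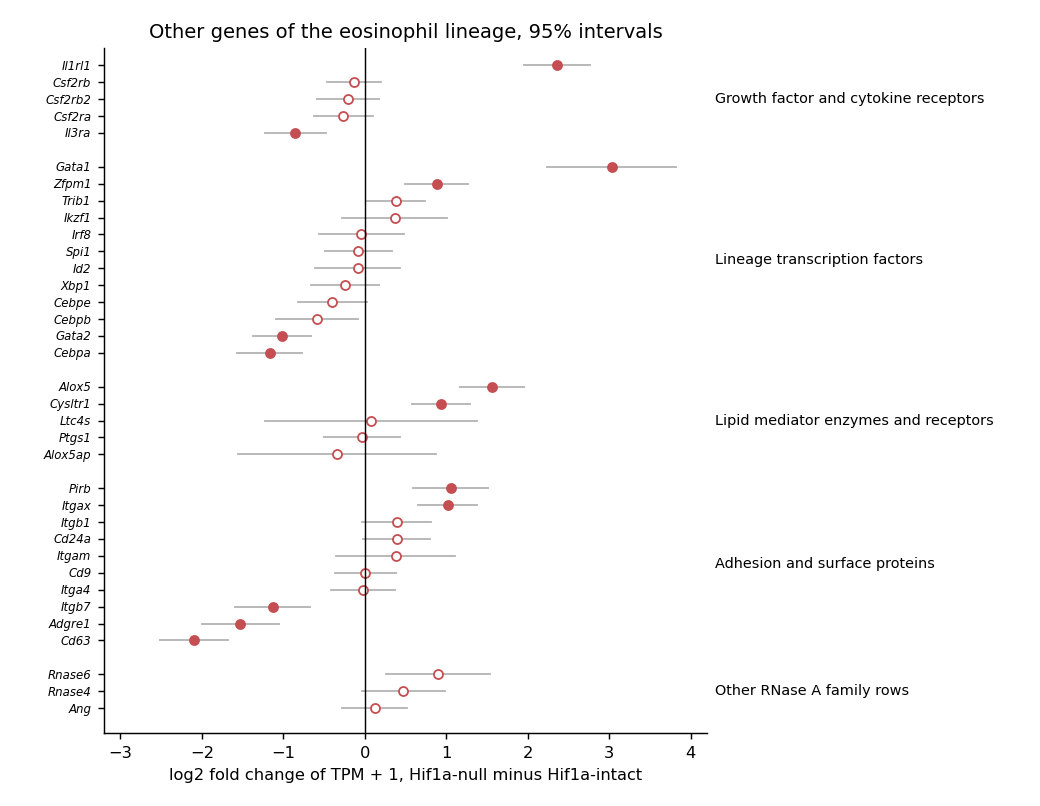
Log2 fold change of TPM + 1, Hif1a-null minus Hif1a-intact (horizontal axis), for the 35 tested genes of the 5 lists, with 95% intervals from limma and filled points for an adjusted p under 0.05. Calls lie on both sides of 0, from Cd63 at -2.09 to Gata1 at 3.03.

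Several cell types of the marrow share some of the 9 genes, and the levels of their markers are given beside the eosinophil values. When Hif1a-null replicate 1 or 2 was left out, 0 markers of the 6 lists were called. In bulk RNA, fewer cells of a type and less RNA per cell cannot be told apart. Markers of mast cells and basophils summed to 164 and 166 TPM in Hif1a-null libraries and 677 and 451 TPM in Hif1a-intact libraries. Most of that difference was Cpa3, a mast cell protease gene, at 42.3 and 42.4 TPM in Hif1a-null libraries and 526 and 289 TPM in Hif1a-intact libraries. Without Cpa3, a sum added after the data were seen, the markers came to 122 and 124 TPM in Hif1a-null libraries and 151 and 161 TPM in Hif1a-intact libraries. Of the 12 markers 6 were tested, with 0 higher and 2 lower, Cpa3 (log2 fold change -3.17) and Gata2. Hdc, Mcpt8, Cd200r3 and Ms4a2 were not called, and Ms4a2 alone had a fold change above 0 (0.20). Prss34, Cma1, Tpsb2 and Tpsab1 were at 0 in all 4 libraries. Their part in the Prg2 and Siglecf results was not tested.

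Macrophage and non-classical monocyte markers, of cell types known for Ear2 and Siglecf, summed to 122 and 127 TPM in Hif1a-null libraries and 148 and 151 TPM in Hif1a-intact libraries. Of 12 markers 10 were tested, with 1 called higher and 2 lower. The median log2 fold change was 0.62, the opposite sign to that of the sum, with 7 of the 10 above 0 (Vcam1 only at 0.02). Of these 7, 4 were tested only through the Hif1a-null libraries. Adgre1 and Cd68 fell (log2 fold changes -1.53 and -1.06), Nr4a1 rose (0.73, tested only through the Hif1a-null libraries, and not called once either Hif1a-intact library was left out), and C1qb was not called at 0.93. Without Hif1a-intact replicate 2, C1qc was gained (limma, adjusted p = 0.0416). None of the 12 was at 0 in all 4 libraries. Their part in the Ear2 and Siglecf results was not tested.

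The summed neutrophil markers were far more abundant than any of the 9 genes. Not every single marker was. Mmp8, at 29.1 and 30.5 TPM in Hif1a-null libraries and 4.06 and 3.11 TPM in Hif1a-intact libraries, lay below Prg2. Ly6g lay below Prg2 in the Hif1a-intact libraries only, at 26.1 and 24.9 TPM, and read 129 and 162 TPM in Hif1a-null libraries. Primary granule genes summed to 6611 and 6709 TPM in Hif1a-null libraries and 7292 and 6586 TPM in Hif1a-intact libraries, with 0 of 5 called, none at 0 and a median log2 fold change of -0.35. The log2 fold changes of Ms4a3, Mpo, Prtn3 and Ctsg were -0.44, -0.41, 0.28 and -0.35. Prg2 was 3.96% and 3.93% of the level of Mpo in Hif1a-null libraries and 1.05% and 1.16% in Hif1a-intact libraries. Genes of later neutrophil granules and maturation summed to 17736 and 18347 TPM in Hif1a-null libraries and 13911 and 16410 TPM in Hif1a-intact libraries. Of those 8 genes 6 were called higher, 0 lower and none was at 0, and the median log2 fold change was 1.54. The smallest p were those of Mmp8, Ly6g, Mmp9 and Retnlg with log2 fold changes of 2.75, 2.46, 1.85 and 2.74. Ngp was lost when Hif1a-intact replicate 1 or 2 was left out (limma, adjusted p = 0.0542 and 0.0638), and the other 5 were called. Their part in the Prg2 result was not tested.

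B cell markers summed to 44.2 and 40.9 TPM in Hif1a-null libraries and 12.6 and 7.76 TPM in Hif1a-intact libraries. Of 9 markers 7 were tested and 6 called higher, 5 of the 7 having been tested only through the Hif1a-null libraries and able only to be called higher, and none was at 0 in all 4 libraries. Blnk and Cd79a had log2 fold changes of 2.94 and 1.94, and Igll1 read 2.68 and 2.65 TPM in Hif1a-null libraries and stood at 0 in both Hif1a-intact libraries. Without Hif1a-intact replicate 2, Ebf1 and Vpreb1 were lost (limma, adjusted p = 0.0515 and 0.0615). Il5ra, which a class of B cells carries, stayed at or under 1.23 TPM in the same libraries. Progenitor markers summed to 349 and 356 TPM in Hif1a-null libraries and 427 and 417 TPM in Hif1a-intact libraries, with Gata2 lower among 5, none at 0 and a median log2 fold change of -0.19. Kit read 121 and 102 TPM in Hif1a-null libraries and 128 and 126 TPM in Hif1a-intact libraries, and the log2 fold changes of Cd34 and Ly6a were -0.37 and 0.41 with neither called.

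**Figure D5:**
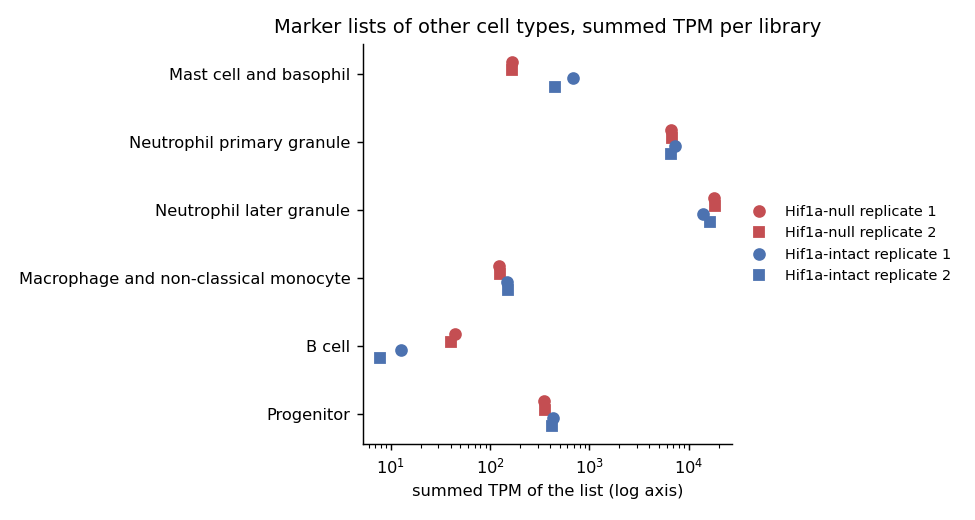
Summed TPM of 6 marker lists of other cell types in each library (horizontal log axis), Hif1a-null in red and Hif1a-intact in blue, circles for replicate 1 and squares for replicate 2. Mast cell and basophil markers, mostly Cpa3 in the Hif1a-intact libraries, lie lower in Hif1a-null libraries (164 and 166 against 677 and 451 TPM), B cell markers lie higher, and primary granule markers overlap.

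Genes most like Prg2 over the 4 libraries were sought by the Euclidean distance between log2(TPM + 1) values, each gene centred on its own mean. Among the nearest were Atp7b (0.0574), Rhobtb3 (0.0599), Ccne1 (0.0689) and Tmem41a (0.0708). Ccne1 and Tmem41a were called higher, as were Atp7b and Rhobtb3, which passed the filter only through the Hif1a-null libraries and could only be called higher. Ccne1 encodes cyclin E1, which acts at entry into S phase, and Atp7b a copper transporter. Ccne1 read 40.9 and 41.2 TPM in Hif1a-null libraries, against 15.0 and 14.2 TPM in Hif1a-intact libraries. For Siglecf, a search added after the data were seen, the nearest were Klrb1f (0.0948), Gstm7 (0.106), Bend4 (0.114), Mn1 (0.117) and Mapk12 (0.125). All 5 were called lower, but Bend4, under 1 TPM in both Hif1a-null libraries, could only be called lower. Klrb1f, an NK receptor family gene, read 18.2 and 19.3 TPM in Hif1a-null libraries, against 69.8 and 59.3 TPM in Hif1a-intact libraries. With 4 libraries in 2 groups such a distance mostly ranks genes by the size of their group difference.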

How the data were processed

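Per the submitters' processing notes, the authors used kallisto and the mm10 build. Its version, transcript set and strand setting are not given in sources used here. The values deposited by the authors, 1 for each Ensembl gene in each library, were read as TPM because the 4 columns sum to between 955562 and 963135. Depth is unknown, so no counting intervals are given. Of 28987 genes, 27458 were given symbols and coordinates from GENCODE vM21 (GRCm38) by Ensembl identifier.

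Groups were compared on log2(TPM + 1) by the two-sided moderated test of limma 3.58.1, under R 4.3.3, after a check on simulated data, with the filter given above and Benjamini-Hochberg adjustment over all 11909 genes tested. In that check 26% of the genes given a log2 change of 1 were called, and 72% of those given 2. The check had 138 calls in all, against 866 in the data, so these shares need not hold here. A gene not called can still differ. Libraries were grouped by genotype, 2 in each group, and the labels mention neither batches nor pairs. Near-identical copies were sought with blastn 2.17.0 (identity of 95% or more, covering 50% or more of the shorter transcript and no fewer than 100 bases), and Ear coding sequences were aligned with mafft 7.526. Figures used matplotlib 3.10.9 in Python 3.11.15.

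The 9 genes and the lists were chosen with earlier results of these data known. Named were the 9 genes, Hif1a and Runx1, up to 4 tested genes of smallest p per list, the 5 genes of nearest profile, genes within 50 kb and every further Ear or Rnase2 row reaching 1 TPM, of which there were 0. Kmt2a, Csf2rb, Ccr3, Il5, Cebpe, Alox15, Pirb, Rnase2a, Rnase2b, Ear14, Ngp, Ebf1, Vpreb1, C1qc, Vcam1, Cd200r3, Ms4a2, the genes nearest to Siglecf and the genes named as listed at 0 fall outside that rule and were chosen after their values were seen. Some genes that the rule names are not reported here. Alternatives were other variance models, scalings, filters, pseudocounts and gene sets, and leaving out each library.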

Additional observations from a re-analysis of the deposited data

How the results depend on the processing

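No paired analysis was possible because the labels give no replicate numbers that groups share. Prg2 and Siglecf kept their direction and their call in 12 of 14 alternatives each. With a library left out their log2 fold changes ran from 1.32 to 1.47 for Prg2 and from -1.83 to -1.52 for Siglecf, and the calls were lost when Hif1a-null replicate 1 or 2 was left out. Ear2 was not called after quantile normalization (1.51), with no filter (1.86) or with a pseudocount of 5 TPM (0.67), nor with Hif1a-intact replicate 1 or 2 left out (1.82 to 1.90), whereas the sum of all Ear rows was called in 10 of 10 alternatives, with an adjusted p of 0.0473 at the highest. Neither Ear2 nor the sum could be tested without a Hif1a-null library or with a filter of 5 TPM. Epx was called after median-ratio rescaling (0.82), with the 50 most abundant genes left out (0.94), among protein-coding genes (0.79) and without Hif1a-intact replicate 1 (0.92, with a range of 0.67 to 0.92 over the libraries left out). Prg3 was called in 0 of 14.

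With no filter 568 genes were called in all, and with a filter of 5 TPM 493, against 866. With a library left out the number of calls ran from 0 to 1019 genes in all, from 0 to 3 of the 9 genes, and from 0 to 13 of the other eosinophil genes. Quantile normalization called 8 of those other genes and no filter 7, against 13. The cause was not tested. Some named genes changed sign. After quantile normalization these were Ang (-0.31), Ptgs1 (0.030) and Slc39a2 (-0.0074), with a pseudocount of 5 TPM Slc39a2 (-0.020), and with the 50 most abundant genes left out Ptgs1 (0.056) and Kmt2a (0.048). With a library left out the range spanned 0 for Ctsg (-0.72 to 0.012), Alox5ap (-0.95 to 0.28), Ptgs1 (-0.18 to 0.11), Ssrp1 (-0.17 to 0.24), Slc39a2 (-0.81 to 0.98), Siglecg (-0.042 to 0.40), Crbn (-0.36 to 0.042), Trnt1 (-0.38 to 0.19) and Kmt2a (-0.091 to 0.013). None of these was called with all libraries and the settings of the report. Depth is unknown, so what low values such as those of Ear1, Ear6 and Il5ra can show is limited.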

Other observations

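Genes annotated within 50 kb of the 9 genes and at 1 TPM or more in a library are given as values. Slc43a3, an amino acid transporter family gene 21952 bases from Prg2, read 181 and 184 TPM in Hif1a-null libraries and 92.2 and 116 TPM in Hif1a-intact libraries (log2 fold change 0.81, limma adjusted p = 0.0748). Ssrp1, on the far side of Prg3, read 170 and 188 TPM in Hif1a-null libraries and 151 and 201 TPM in Hif1a-intact libraries. Mks1, a cilium gene 197 bases from Epx, read 2.68 and 1.17 TPM in Hif1a-null libraries and 4.19 and 3.86 TPM in Hif1a-intact libraries (log2 fold change -0.83, limma adjusted p = 0.2). Siglecg, a Siglec gene 48673 bases from Siglecf, read 25.1 and 18.3 TPM in Hif1a-null libraries and 19.6 and 18.1 TPM in Hif1a-intact libraries (log2 fold change 0.18, limma adjusted p = 0.66). Gm8113, Mettl17, Slc39a2, Zfp715, Crbn and Trnt1 had log2 fold changes of 0.40, -0.57, 0.09, -0.30, -0.16 and -0.10. Of the genes in these neighbourhoods that are not among the 9, none was called by limma (Mks1 and Slc43a3 had an unadjusted p under 0.05).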
